A study of Mus musculus with 26 samples.

Results

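The transcripts of 10 transcription factor genes that decide between blood lineages were followed in leukaemic stem and progenitor cells of mice. They were Gata1, Gata2, Tal1, Gfi1b, Runx1, Spi1, Cebpa, Cebpe, Gfi1 and Irf8. These genes were taken by symbol from the deposited read counts, and all 10 were found among the 24091 genes of the table. The RNA came from LSK cells, the bone marrow fraction without lineage markers and with Sca-1 and c-Kit on its surface, in C57BL/6 mice carrying SCLtTA/BCR-ABL, a transgenic model of chronic myeloid leukaemia (CML). Every group carried this transgene, controls included, so no group shows normal blood formation. The global KO group (6 libraries) lacked Spred1, an inhibitor of RAS-ERK signalling, in the whole animal and was set against Spred1 wt (5 libraries). The HSC KO group (Spred1 deleted by Mx1-cre) was set against HSC wt (5 libraries each), and both of these received poly(I:C), 250 µg in each of 7 doses, to switch on the Cre. Mx1-cre is active in all cells that respond to interferon, and is therefore not restricted to blood stem cells. EC KO mice (5 libraries) had lost Spred1 in endothelium and were set against Spred1 wt, because its own control, EC wt, was not analysed here. The promoter that drives the endothelial Cre, the animals' ages and any poly(I:C) given to the other groups are not stated in the labels used here.

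Lineage choice in blood rests on a small set of factors that bind neighbouring DNA sites, activate the genes of 1 fate and oppose those of another. GATA2 keeps stem and early progenitor cells and also acts in mast cells, and GATA1 takes over in erythroid, megakaryocytic, mast and eosinophil cells. TAL1 binds beside GATA factors in a complex with LMO2 and LDB1, and GFI1B represses genes in the erythroid and megakaryocytic lines. RUNX1 is needed for the first blood stem cells and later for megakaryocytes and lymphocytes. PU.1, coded by Spi1, and C/EBPα, coded by Cebpa, drive myeloid fate, C/EBPε (Cebpe) drives the late steps of granulocytes, GFI1 favours granulocytes over monocytes, and IRF8 favours monocytes, dendritic cells and B cells.

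The regulatory sequence at the start of 6 of these genes is given here, because these genes take part in the relations between libraries described further on. Each window runs from 250 bases before to 50 bases after a transcription start in RefSeq, build GRCm38.p6 (the same coordinates as mm10), 5′ to 3′ on the gene's strand, and the first of the listed starts was used. The Gata1 window lies at chrX:7967861-7968160 on the minus strand, Gata2 at chr6:88193641-88193940 on the plus strand, and Tal1 at chr4:115056176-115056475 on the plus strand. The Gfi1b window lies at chr2:28621933-28622232 (minus), Gfi1 at chr5:107725756-107726055 (minus) and Irf8 at chr8:120736108-120736407 (plus). Capitals mark matches on either strand. The letters searched were AGATAA for the GATA factors, with TGATAA as its other form, and AAATCA as the core for GFI1.
Gata1: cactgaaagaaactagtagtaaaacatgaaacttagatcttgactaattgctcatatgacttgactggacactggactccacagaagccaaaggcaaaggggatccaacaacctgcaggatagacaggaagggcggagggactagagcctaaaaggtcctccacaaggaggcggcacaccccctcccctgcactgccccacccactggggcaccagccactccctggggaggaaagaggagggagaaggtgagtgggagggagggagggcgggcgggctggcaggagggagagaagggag
Gata2: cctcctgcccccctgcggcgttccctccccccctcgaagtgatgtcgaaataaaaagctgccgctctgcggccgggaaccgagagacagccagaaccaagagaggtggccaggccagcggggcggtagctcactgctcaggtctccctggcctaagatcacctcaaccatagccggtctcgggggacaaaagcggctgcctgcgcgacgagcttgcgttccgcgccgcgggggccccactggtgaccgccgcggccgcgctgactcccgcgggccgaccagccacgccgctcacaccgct
Tal1: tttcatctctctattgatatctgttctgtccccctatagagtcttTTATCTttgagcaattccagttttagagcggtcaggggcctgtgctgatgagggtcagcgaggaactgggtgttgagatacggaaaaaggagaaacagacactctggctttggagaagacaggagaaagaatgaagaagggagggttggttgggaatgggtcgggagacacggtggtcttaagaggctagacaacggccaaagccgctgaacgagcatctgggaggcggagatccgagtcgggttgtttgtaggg
Gfi1b: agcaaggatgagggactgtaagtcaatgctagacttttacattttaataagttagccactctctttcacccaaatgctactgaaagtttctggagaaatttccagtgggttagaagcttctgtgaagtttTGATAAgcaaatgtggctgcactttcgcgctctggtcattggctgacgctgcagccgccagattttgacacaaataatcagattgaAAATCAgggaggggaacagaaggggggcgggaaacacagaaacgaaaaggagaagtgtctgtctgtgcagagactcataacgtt
Gfi1: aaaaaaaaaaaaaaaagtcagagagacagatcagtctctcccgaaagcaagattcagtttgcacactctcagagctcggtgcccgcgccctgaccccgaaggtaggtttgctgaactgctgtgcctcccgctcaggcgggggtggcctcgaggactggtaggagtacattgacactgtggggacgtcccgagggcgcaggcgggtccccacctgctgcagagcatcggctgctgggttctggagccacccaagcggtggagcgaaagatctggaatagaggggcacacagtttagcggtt
Irf8: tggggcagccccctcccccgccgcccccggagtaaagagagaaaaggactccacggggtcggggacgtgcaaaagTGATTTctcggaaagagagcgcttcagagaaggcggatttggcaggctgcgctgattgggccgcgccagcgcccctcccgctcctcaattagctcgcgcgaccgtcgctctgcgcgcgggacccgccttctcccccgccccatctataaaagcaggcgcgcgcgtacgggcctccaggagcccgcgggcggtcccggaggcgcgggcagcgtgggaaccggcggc

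Among the printed windows, GATA letters were found in Tal1, with AGATAA on the opposite strand at -205 from the start, and in Gfi1b, with TGATAA at -120. The AAATCA letters were found in Gfi1b at -34 and, on the opposite strand, in Irf8 at -175. The Gata1, Gata2 and Gfi1 windows held neither and are therefore all in lower case. Of 32851 windows of this length in the mouse table, 18.6% held the GATA letters and 14% held AAATCA, searched on both strands with any overlaps counted. Over all 13 windows of the 8 genes with an entry (Spi1 and Cebpe had none), 2 held GATA letters and 3 held AAATCA. The PU.1 core GAGGAA, present in 28.3% of all windows, was found in Gata1 at -22, in Tal1 at -146 and at the other Runx1 start. The RUNX letters TGTGGT, in 16.8% of all windows, occurred at 29 and 37 past the first Runx1 start, on the opposite strand. The C/EBP letters TTGCNNAA, in 10.8% of all windows, were found in the Gfi1 and Tal1 windows, and the ETS-IRF composite, in 2.72% of all windows, was found in 0 of the 13. These matches describe the letters and say nothing of binding in these cells.

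Total counts lay between 14816071 and 26714325 per library. Spred1 itself lay below its controls without overlap in each knockout group: in CPM (read counts scaled to a common library total, after TMM), the global KO libraries reached at most 44.5 and the EC KO libraries 84, with 92.4 the lowest among Spred1 wt, and the HSC KO libraries reached 47.4, with 96.9 the lowest among HSC wt. The sort markers Kit and Ly6a (Sca-1) averaged 148 ± 40.1 and 58 ± 12.5 RPKM (CPM divided by the gene length in kilobases that the deposited table gives, SD over 26 libraries). The lineage markers Cd3e and Ly6g averaged 0.148 ± 0.212 and 0.696 ± 0.862 RPKM. Both were picked once their values had been seen, and other genes of their lists were higher. The secondary granule and neutrophil list, which holds Ly6g, summed to between 98.2 and 964 CPM per library. The lymphoid list, which holds Cd3e, summed to between 621 and 1410 CPM. The 2 markers therefore do not show that lineage transcripts were absent. Transcripts of mast cells and basophils varied widely: the 12 genes of that list ranged in sum from 1570 to 13600 CPM among global KO libraries. The ranges were 2710 to 16600 for Spred1 wt and 1990 to 5130 for EC KO. For HSC KO they were 1670 to 12200, for HSC wt 3690 to 6860. Of the 12 genes 0 were at 0 in any group. In these bulk samples fewer cells of a type and less RNA per cell cannot be told apart. By Xist, 2 of the EC KO libraries came from females and 0 of Spred1 wt or global KO, so sex differed between EC KO and its control; among HSC KO there were 3 and among HSC wt 2.

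All 10 factors were expressed in every library, and their levels per length kept much the same order in the 5 groups. Levels between genes are compared as RPKM, as mean ± SD over 26 libraries. Gata2 (mm10, chromosome 6, 88193891 to 88207032) was the highest at 109 ± 27.8 RPKM, at percentile 96.1 of the tested genes. Spi1 (chromosome 2, 91096678 to 91115759) followed at 81.1 ± 7.47, and lay below Gata2 in 21 of 26 libraries. Cebpa (chromosome 7, 35119293 to 35121931) stood at 48.9 ± 9.94, below Spi1 in 26 of 26. Tal1 (chromosome 4, 115056426 to 115071755) stood at 33.1 ± 5.72, below Cebpa in 23 of 26. These 4 genes held ranks 1 to 4 in each of the 5 groups.

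The lower members could not all be put in order. Gfi1 (chromosome 5, 107716655 to 107726022) stood at 24.2 ± 5.56 RPKM and Runx1 (chromosome 16, 92601466 to 92826074) at 21.9 ± 2.44, with Gfi1 the higher in only 14 of 26 libraries. Irf8 (chromosome 8, 120736358 to 120756692) at 13.2 ± 6.87 and Cebpe (chromosome 14, 54710363 to 54712174) at 12.7 ± 5.05 were likewise split, Irf8 being the higher in 14 of 26. Gata1 (chromosome X, 7959260 to 7976574) stood at 8.82 ± 2.74 and Gfi1b (chromosome 2, 28609450 to 28621982) at 8.47 ± 3.0, with Gata1 the higher in 15 of 26. The GATA factor of early progenitors was far above that of erythroid cells in RPKM. Paralogs and partners covered a wider range: Lyl1, the TAL1 paralog, stood at 95.6 ± 7.03 RPKM and Lmo2, the bridging subunit of the TAL1 complex, at 233 ± 36.9, while Tal2, another paralog, stood at 0.0578 ± 0.0663.

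**Figure D1:**
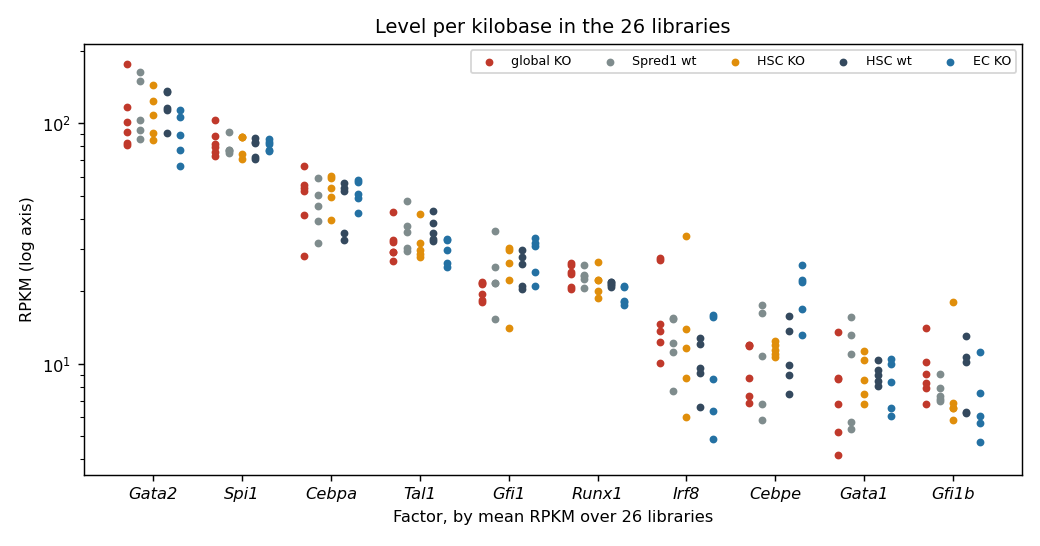
RPKM of each factor in each of the 26 libraries (log axis), with the factors in the order of their mean and the 5 groups side by side in colour. Gata2 and Spi1 lie highest, with means of 109 and 81.1 RPKM, and the clouds of Gfi1 and Runx1, of Irf8 and Cebpe and of Gata1 and Gfi1b overlap.

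The spread between libraries differed widely between the factors. Spi1 varied least over all 26 libraries, with a coefficient of variation of 9.2%, and Runx1 followed with 11.1%. Irf8 varied most, at 52.1%, with 6.99 times between its lowest and highest library (32.2 to 225 CPM). Cebpe (39.9%), Gfi1b (35.4%) and Gata1 (31.1%) were next, and Gata2 (25.4%), Gfi1 (23%), Cebpa (20.3%) and Tal1 (17.3%) lay between. Low counts add to the spread of the rarer genes, and their part in it was not tested.

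**Figure D2:**
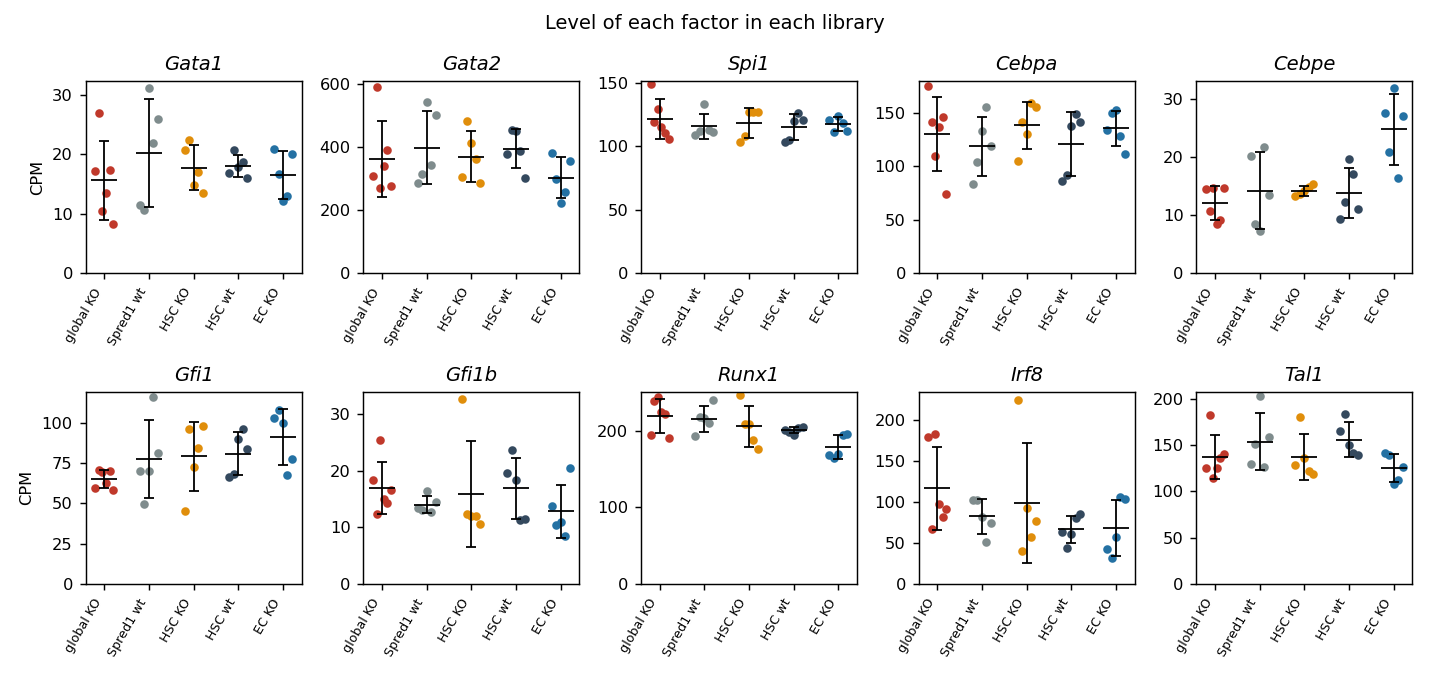
CPM of each factor (linear axis from 0) in each library of the 5 groups, with the mean and SD of each group in black. The EC KO libraries of Cebpe lie high, at 16.3 to 31.8 CPM, those of Runx1 lie low, at 164 to 196 CPM, and 1 HSC KO library stands far above the rest of its group in Irf8, at 225 CPM.

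The comparison of EC KO with Spred1 wt sets leukaemic LSK cells of mice labelled as endothelial knockouts against controls. Spred1 was also lower in the EC KO LSK cells themselves (70.4 ± 11.4 against 114 ± 20.7 CPM, SD, n = 5 each). Its loss in endothelium and its lower level in the sorted cells therefore cannot be told apart. Of the 10 factors 1, Runx1, passed the threshold (edgeR quasi-likelihood test, Benjamini-Hochberg adjusted p under 0.05 over 13379 genes), and it fell. Of all genes 7.96% passed in this comparison, 467 up and 598 down, so that 1 of 10 lies near the background. Runx1, the stem cell and megakaryocyte factor, had 168, 164, 170, 195 and 196 CPM in the EC KO libraries. Its control values, in Spred1 wt, were 193, 218, 217, 210 and 241 CPM. Of the EC KO libraries, 3 lay below all controls and the other 2 within their range, so the groups overlapped. Its level was 179 ± 15.5 against 216 ± 17.5 CPM (SD, n = 5 each), a log2 difference of -0.27, or 0.829-fold (SE 0.0832, 95% interval -0.44 to -0.0995, edgeR adjusted p = 0.0447). The call was lost with no filter on low counts (edgeR adjusted p = 0.0507), in a fit of the compared groups alone (0.0807), with sex as a covariate (0.104), with HSC wt as the control (-0.17, 0.193), and without any of the Spred1 wt replicates 2, 3 and 5 or the EC KO replicates 1, 2 and 3 (0.0658 to 0.121). The difference itself stayed near its size with no filter (-0.28), in the compared groups (-0.29), with the sex covariate (-0.25) and with libraries left out (-0.33 to -0.25). The HSC wt libraries stood at 201, 199, 195, 204 and 205 CPM, all within the Spred1 wt range.

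Cebpe, the late granulocyte factor, was the member with the largest difference in EC KO. Its EC KO libraries held 27.6, 20.8, 31.8, 16.3 and 27 CPM. The Spred1 wt libraries held 20.2, 8.4, 7.22, 21.7 and 13.4 CPM. Of the EC KO libraries, 3 lay above all controls, and the lowest lay inside the control range. The difference was 0.81 on the log2 scale, or 1.75-fold (SE 0.261, 95% interval 0.27 to 1.35), and missed the threshold at an edgeR adjusted p of 0.0556. It passed with HSC wt as the control (0.84, edgeR adjusted p = 0.0376), with the mean of both wild-type groups (0.82, 0.0132), with DESeq2 (0.79, 0.0286), with voom (0.86, 0.032) and without Spred1 wt replicate 1 or 4 or EC KO replicate 4 (0.0248 to 0.0466). Of the secondary granule and neutrophil list, which holds genes of the stage at which C/EBPε acts, 8 of 12 were higher in EC KO and 4 lower, 0 passed, and the median log2 difference was 0.55 against 0.02 over all genes. In HSC wt, the control against which Cebpe passed, the list was higher still: its sum had a median of 821 CPM, against 549 in EC KO, and 11 of 12 genes were higher than in Spred1 wt (median 1.05, 0 passed).

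The stem cell and erythroid factors Gata2 and Tal1 lay lower in EC KO without passing. Gata2 stood at 382, 298, 223, 259 and 355 CPM against 288, 314, 545, 345 and 503 CPM in Spred1 wt, a log2 difference of -0.40 (SE 0.214, edgeR adjusted p = 0.252). Tal1 stood at 141, 139, 108, 112 and 126 CPM against 130, 151, 203, 126 and 159, a log2 difference of -0.30 (SE 0.137, unadjusted p = 0.0407, edgeR adjusted p = 0.177). In both genes 2 of 5 EC KO libraries lay below all controls, and the highest controls were Spred1 wt replicates 3 and 5, with mast cell list sums of 16600 and 10300 CPM. Spred1 wt replicate 4, with a sum of 9790 CPM, had the lowest Tal1 of the controls and a middle Gata2. Gata1 (-0.29), Irf8 (-0.27) and Gfi1b (-0.13) were lower and Gfi1 (0.23), Cebpa (0.19) and Spi1 (0.02) higher, with edgeR adjusted p from 0.47 to 0.903. The median over the 10 members was -0.20 on the log2 scale against 0.02 over all genes.

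Some markers of other cells differed in this comparison. Of the 138 tested genes of the other lists, paralogs and partners included, 1 rose and 5 fell. Over all genes 7.96% passed, so these calls are no more frequent than the background. The LSK sort genes summed to 1100 to 1510 CPM in EC KO and 1580 to 2290 in Spred1 wt. Kit, the stem cell factor receptor, made up a large part of that sum and fell by 0.85 (516 ± 126 against 930 ± 182 CPM, SE 0.177, edgeR adjusted p = 0.00447). It was the only 1 of the 3 sort genes that passed. All 3 were lower, with a median log2 difference of -0.19. Of the 12 mast cell and basophil genes 2 fell, the proteases Mcpt4 (-3.74, adjusted p = 0.013) and Gzmb (-2.62, adjusted p = 0.0242), with 9 of 12 lower in all, a median of -1.45 and 0 of 12 genes at 0. With the mean of that list as a covariate the differences of Gata1 and Gata2 turned to 0.23 and 0.12. In that fit Runx1 (-0.34, edgeR adjusted p = 0.0217), Irf8 (-1.40, 0.00359) and Gfi1 (0.62, 0.0262) passed, 3 of 10 beside 19.9% of all genes, and a covariate that differs between the groups also carries part of the group difference. The part of these cells in the results was not tested further.

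**Figure D3:**
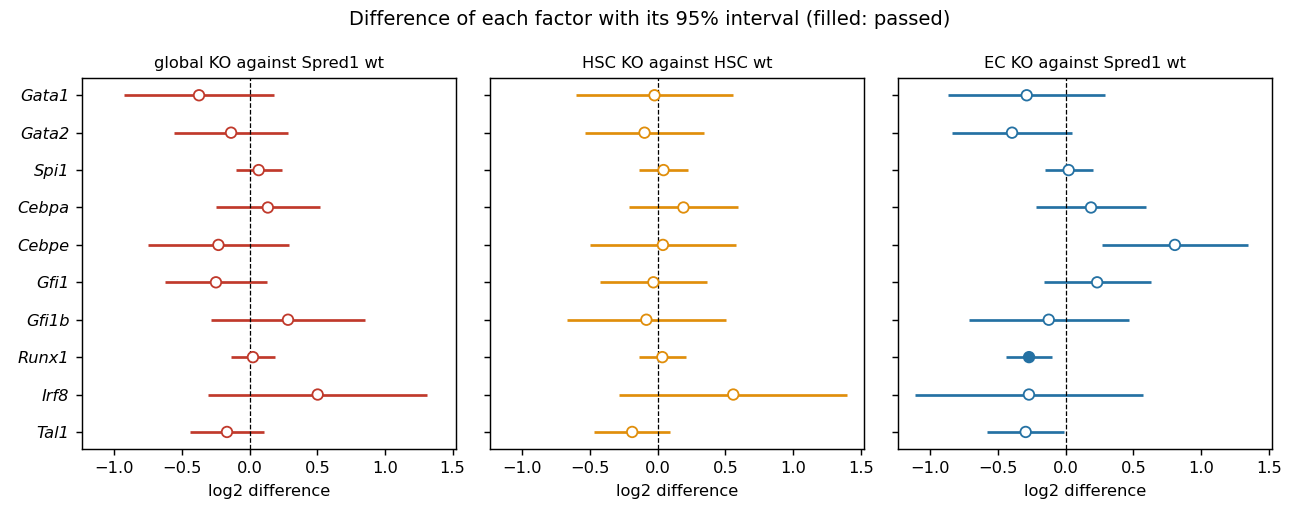
Log2 difference of each factor with its 95% interval in the 3 knockout comparisons, where a filled point passed the edgeR threshold and the dashed line is 0. The interval lay off 0 for Runx1 (-0.27), Cebpe (0.81) and Tal1 (-0.30) in EC KO and included 0 for all 10 factors in global KO and in HSC KO. An interval off 0 is an unadjusted edgeR p under 0.05. Of 13379 genes, 3360 reached that in EC KO, 740 in global KO and 289 in HSC KO.

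Loss of Spred1 in the whole animal was read from global KO against Spred1 wt, the same control libraries as for EC KO. None of the 10 passed, at 0.0747% of all genes passing, and DESeq2 and voom passed 0 as well. At an unadjusted p under 0.05 the count was also 0 (edgeR, smallest unadjusted p 0.177), beside 740 of 13379 genes. Irf8, the monocyte and dendritic factor, showed the largest difference: its 6 global KO libraries ran from 67.4 through a median of 94.5 to 183 CPM, against 102, 103, 81.6, 51.2 and 74.5 CPM in Spred1 wt. Only 2 of 6 libraries, at 180 and 183 CPM, lay above all controls. The log2 difference was 0.50 (SE 0.39, 95% interval -0.30 to 1.31, edgeR adjusted p = 0.959). Gata1 was lower by 0.37 (SE 0.269, adjusted p = 0.949), with 2 of 6 libraries below all controls, and Gfi1 by 0.25 (SE 0.183, adjusted p = 0.954). Gfi1b was higher by 0.28 (SE 0.275, adjusted p = 0.977). The intervals of Spi1 (-0.10 to 0.24) and Runx1 (-0.14 to 0.19) were the narrowest.

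Deletion by Mx1-cre was read from the HSC pair of groups. Again 0 of 10 factors passed, by edgeR, DESeq2 or voom, against 0.0224% of all genes by edgeR. At an unadjusted edgeR p under 0.05 there were also 0 (smallest 0.182), beside 289 of 13379 genes. Irf8 again had the largest difference, 0.56 (SE 0.406, 95% interval -0.28 to 1.40, edgeR adjusted p = 0.999), but this rests on 1 library: the HSC KO libraries stood at 225, 39.9, 92.7, 57.9 and 77 CPM against 63.9, 43.9, 61.2, 80.4 and 85.2 in HSC wt, and without HSC KO replicate 1 the difference was 0.0002. That library also had the highest plasma and B cell list sum of its group, 1040 CPM against a group median of 273. Tal1 lay below all controls in 4 of 5 libraries, at 128, 180, 136, 122 and 119 CPM against 165, 184, 150, 141 and 139, but differed by only -0.19 (SE 0.137, edgeR adjusted p = 0.999). Gfi1b stood at 32.6 CPM in replicate 1 and at 10.6 to 12.4 in the other 4, against 11.3 to 23.7 in HSC wt, and differed by -0.08, or by -0.52 without replicate 1 (edgeR adjusted p = 0.877).

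The remaining contrasts were those of the controls and of the 2 knockout effects. HSC wt and Spred1 wt differ by their labels in Mx1-cre and, where Spred1 wt received none, in poly(I:C), and by Xist in sex (2 libraries from females against 0), and these cannot be told apart. Here 0 of 10 factors passed by edgeR, DESeq2 or voom, against 0.0299% of all genes by edgeR. At an unadjusted edgeR p under 0.05 there were also 0, beside 850 of 13379 genes. The differences ran from -0.30 (Irf8) to 0.27 (Gfi1b). In the test of whether the global KO and HSC KO effects differ, 0 of 10 passed by any of the 3 tools, against 0.0149% of all genes by edgeR. At an unadjusted edgeR p under 0.05 there were also 0, beside 286 of 13379 genes. The differences of effects ran from -0.35 (Gata1) to 0.37 (Gfi1b), and the intervals of Irf8 (-1.22 to 1.1) were wide enough that sizeable differences were not detectable. For Spi1 (-0.22 to 0.27) and Runx1 (-0.25 to 0.23) they were narrow.

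The factors also varied within groups, and some of them varied together. Each library's log2 CPM was taken as a deviation from its group mean, and the 45 pairs of factors were tested over the 26 libraries by permuting libraries within groups (two-sided, 100000 resamples, Benjamini-Hochberg over the 45 pairs). Pearson's r passed in 6 pairs and both r and Spearman's rho in 5. Gata1 and Gata2 varied together with r = 0.827 (rho = 0.824, adjusted permutation p = 0.000225 and 0.00045, raw p = 1e-05, the smallest the resamples can give). The relation was positive in 5 of 5 groups, at r = 0.441 to 0.986, and r was 0.780 without the 2 libraries farthest from the median. Gata2 and Tal1 had r = 0.816 (rho = 0.796, adjusted permutation p = 0.000225 and 0.0009, raw p = 1e-05 and 4e-05) and 0.723 without the 2 libraries. Gata1 and Tal1 had r = 0.617 (raw permutation p = 0.0045, adjusted 0.0337), with 0.613 without the 2 libraries, while its rho of 0.597 missed the threshold (raw permutation p = 0.00699, adjusted 0.0524). Both relations with Tal1 were positive in 5 of 5 groups.

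The myeloid factors gave the other pairs. Spi1 and Cebpa had r = 0.642 (rho = 0.621, raw permutation p = 0.00351 and 0.0034, adjusted 0.0316 and 0.0313, 0.587 without the 2 farthest libraries). Cebpa and Gfi1 had r = 0.601 (rho = 0.614, raw permutation p = 0.00041 and 0.00118, adjusted 0.00615 and 0.0177, 0.671 without the 2). Both were positive in 5 of 5 groups. Gfi1 and Irf8, the factors of granulocytes and of monocytes, were the pair that went in opposite directions, with r = -0.653 (rho = -0.595, raw permutation p = 0.00156 and 0.00348, adjusted 0.0175 and 0.0313). It was negative in 4 of 5 groups and -0.527 without the 2 libraries. Gata1 and Spi1, whose proteins are known to oppose each other, had r = 0.085 and adjusted permutation p = 0.815, and rho = -0.019 with 0.951.

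The relations were recomputed without the libraries of high mast cell content. As an alternative chosen after seeing the data, the 5 libraries whose mast cell list summed to 9790 CPM or more (global KO replicate 2, HSC KO replicate 2 and Spred1 wt replicates 3, 4 and 5, the other 21 reaching 6860 at most) were left out. Then 0 of 45 pairs passed the permutation test. Pairs with both unadjusted p under 0.05 numbered 11, the same number as over all 26 libraries. In the count of pairs passing, fewer libraries and changed r cannot be told apart. The r stood at 0.652 for Gata1 with Gata2, 0.650 for Gata2 with Tal1, 0.360 for Gata1 with Tal1, 0.734 for Spi1 with Cebpa, 0.522 for Cebpa with Gfi1 and -0.572 for Gfi1 with Irf8. With the mast cell list mean regressed out over all 26 libraries 12 pairs passed, with r = 0.741 for Gata1 with Gata2, 0.680 for Gata2 with Tal1 and 0.640 for Spi1 with Cebpa, while Gata1 with Tal1 (0.421), Cebpa with Gfi1 (0.440) and Gfi1 with Irf8 (-0.329) no longer passed. Without HSC KO replicate 1, 3 pairs passed and Gfi1 with Irf8 stood at -0.501 (adjusted permutation p = 0.0775), and Spi1 with Cebpa at 0.605 (0.0775), both past the threshold no longer.

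**Figure D4:**
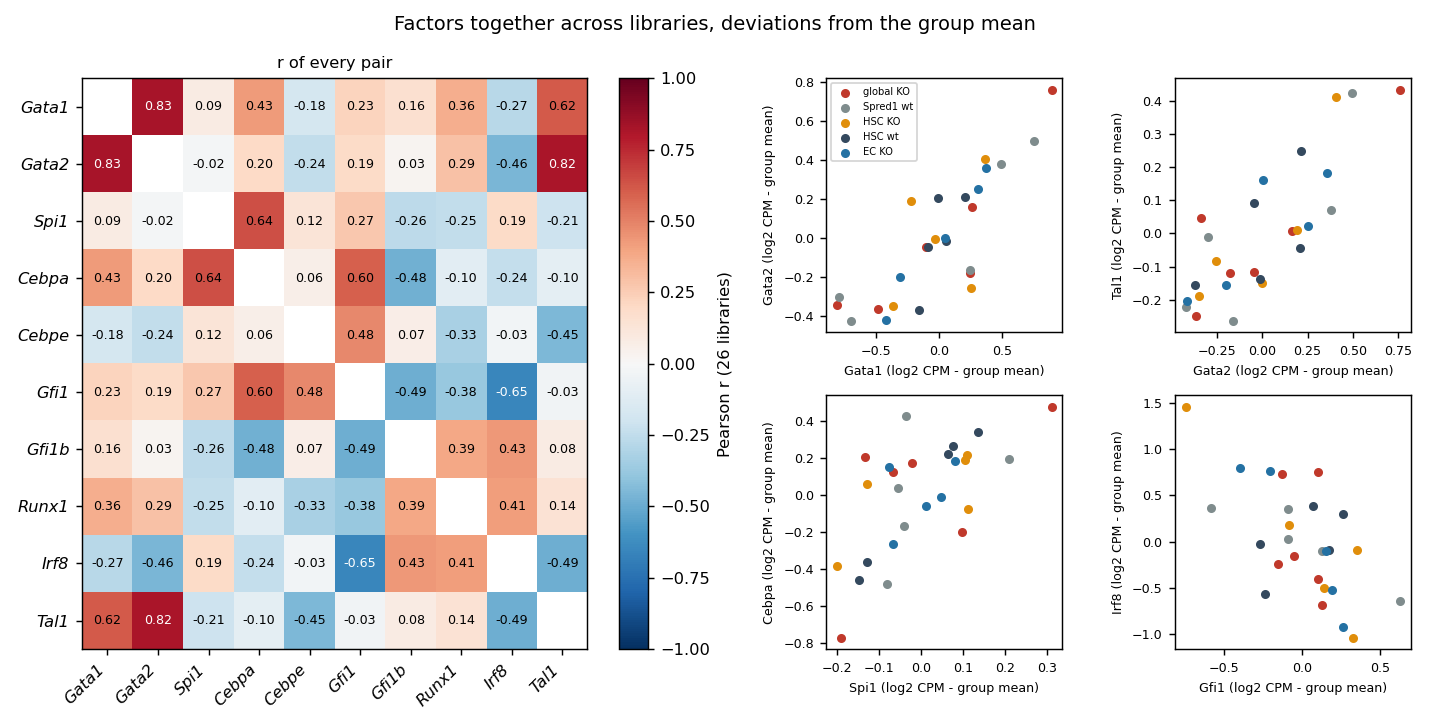
Left, Pearson r of every pair of factors over 26 libraries, on deviations of log2 CPM from the group mean. Right, the deviations of 4 pairs, 1 point per library coloured by group. Gata1 with Gata2 (0.83) and Gata2 with Tal1 (0.82) rise together, Spi1 with Cebpa (0.64) too, and Gfi1 falls as Irf8 rises (-0.65).

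Each factor was also set against 12 lists of cell type genes, 120 pairs in all, of which 30 passed in both r and rho, 18 of them positive. The megakaryocyte and the stem cell list share 1 gene. Without the 5 mast cell-rich libraries 17 passed in both. Gata2, Gata1 and Tal1 went with the mast cell and basophil list (r = 0.711, 0.552 and 0.618, adjusted permutation p = 0.00176, 0.0271 and 0.0148) and with the LSK sort genes Kit, Ly6a and Ly6e (r = 0.700, 0.579 and 0.794, adjusted permutation p = 0.0015, 0.0148 and 0.00176). The mast cell relation was not particular to these factors. Gfi1 had r = 0.623 with that list (rho = 0.625, adjusted permutation p = 0.0163 and 0.011), positive in 5 of 5 groups. Without HSC KO replicate 1 this Gfi1 call was lost (r = 0.470, adjusted permutation p = 0.118). With the erythroid list Gata1 had r = -0.090 (adjusted permutation p = 0.745). Cpa3 and Tpsb2, a carboxypeptidase and a tryptase of mast cells, were the most abundant genes of the mast list at 1510 and 1140 CPM. Tal1 went against the monocyte and macrophage list (r = -0.609, adjusted permutation p = 0.0148) in 5 of 5 groups. Without the 5 mast cell-rich libraries the calls with the mast cell list were lost for Gata2 (r = 0.530, adjusted permutation p = 0.177), Gata1 (0.208, 0.612), Tal1 (0.441, 0.198) and Gfi1 (0.644, 0.119). Also lost were those of Gata1 with the LSK sort genes (0.501, 0.145) and of Tal1 with the monocyte list (-0.502, 0.152). The libraries were left out by the sum of that same mast cell list, and 21 remained. A lost call with the mast cell list can therefore come from this choice alone and does not decide whether the relation holds. Gata2 and Tal1 still passed with the LSK sort genes (r = 0.672 and 0.660, adjusted permutation p = 0.032 and 0.0445).

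Cebpa and Gfi1 went with the primary granule list. Cebpa had r = 0.879 (rho = 0.869, adjusted permutation p = 0.00048) with it and -0.829 with the stem cell list (adjusted permutation p = 0.00048). Gfi1 had 0.787 and -0.754 with the same lists (adjusted permutation p = 0.00048 and 0.0008). All 4 of these kept passing without the mast cell-rich libraries, at r = 0.898, -0.803, 0.742 and -0.775. Gfi1 also went against the endothelial (r = -0.761), lymphoid (-0.682), erythroid (-0.661), dendritic (-0.660) and megakaryocyte (-0.635) lists (adjusted permutation p from 0.0015 to 0.024). Without the mast cell-rich libraries the endothelial and lymphoid calls were kept. The erythroid and megakaryocyte calls were lost, and the dendritic one passed in r alone. Without HSC KO replicate 1 the erythroid (r = -0.458, adjusted permutation p = 0.137) and megakaryocyte (-0.438, 0.124) calls were lost too. The endothelial, lymphoid and dendritic calls were kept there. Mpo, the myeloperoxidase of primary granules, led that list at 4840 CPM. Cebpe, by contrast, passed with 0 of 12 lists in both measures, with r = 0.485 for primary granules (adjusted permutation p = 0.0856). Spi1 had 0.540 with that list (adjusted permutation p = 0.0408). This call was kept without the mast cell-rich libraries (r = 0.752, adjusted permutation p = 0.0121) and lost without HSC KO replicate 1 (0.488, 0.118).

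Irf8 went with 6 of the 12 lists and against 1, the mast cell list. It had r = 0.875 with the lymphoid list, whose most abundant genes are Ikzf1 and Dntt, and also 0.875 with the plasma and B cell list (adjusted permutation p = 0.00048 each). With the dendritic cell list r was 0.804 and with the monocyte and macrophage list 0.736 (adjusted permutation p = 0.0015 and 0.00175). It also went with the erythroid list (r = 0.746, adjusted permutation p = 0.009) and the endothelial list (0.727, 0.0015); without the mast cell-rich libraries the erythroid call was lost (0.737, 0.0573) and the endothelial one kept (0.784, 0.0145), and the erythroid call was also lost without HSC KO replicate 1 (0.609, 0.0665). Against the mast cell list Irf8 had -0.800 (adjusted permutation p = 0.0015). Its dendritic, lymphoid and endothelial relations were positive in 4 of 5 groups, with lowest group values of r = -0.851, -0.277 and -0.065. Those with the plasma and B cell, monocyte and erythroid lists were positive in 5 of 5. Without HSC KO replicate 1 the lymphoid, plasma and B cell, dendritic, monocyte and mast cell relations stood at 0.819, 0.817, 0.731, 0.745 and -0.722, and without the mast cell-rich libraries at 0.889, 0.914, 0.825, 0.715 and -0.792. Gfi1b had r = 0.790 with the megakaryocyte list (adjusted permutation p = 0.0015), positive in 5 of 5 groups, and Runx1 passed with 0 of 12 lists. Whether cells of these types or their transcripts in LSK cells gave these relations was not tested.

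**Figure D5:**
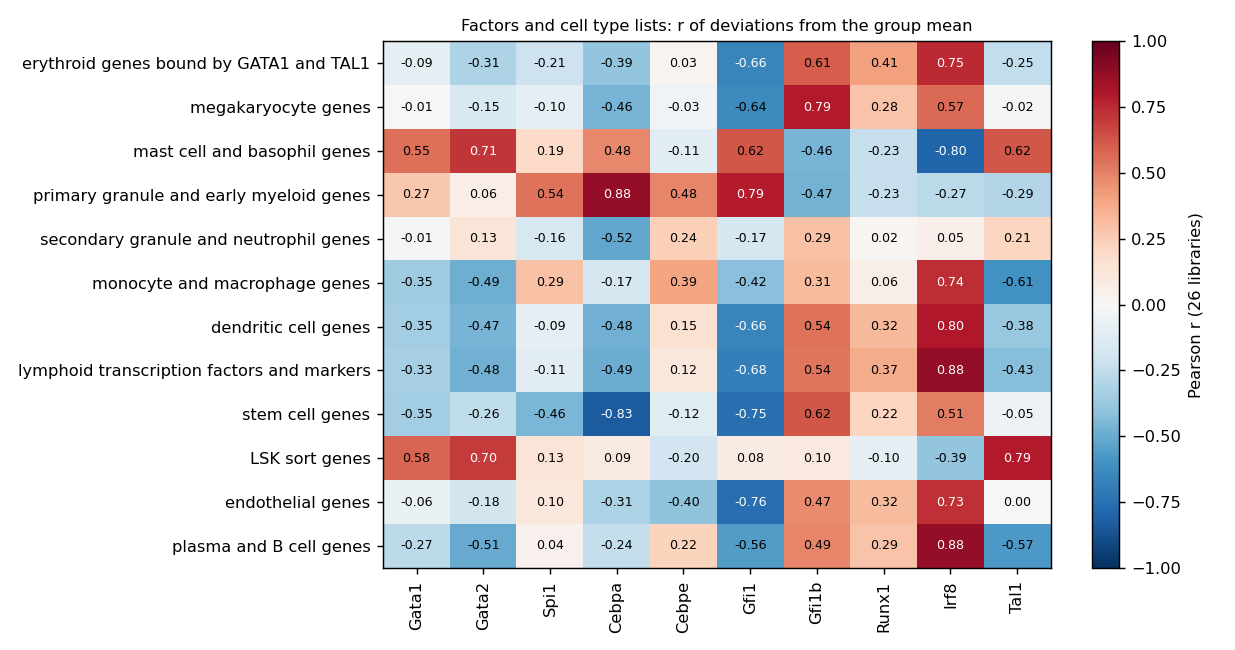
Pearson r of each factor (columns) with the mean log2 CPM of each cell type list (rows) over 26 libraries, both as deviations from the group mean. Irf8 has 0.88 with the lymphoid list and -0.80 with the mast cell list, Cebpa has 0.88 with primary granule genes, and Tal1 has 0.79 with LSK sort genes.

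As a description with no test, the 3 genes most like each factor were found among 10486 genes of at least 5 CPM by the same deviations over 26 libraries. For Gata1 they were Fcer1g (r = 0.889), the shared chain of Fc receptors in mast cells, Nucb1 (0.884) and Csf1 (0.875), and Gata2 came 14th. Gata2 was closest to Arap3 (0.912), Lat2 (0.911), an adaptor of mast cell and B cell receptors, and Chn2 (0.906), and Tal1 to Cyth3 (0.887), Tns1 (0.886) and Lat2 (0.867). Irf8 was closest to Tmem229b (0.957), Mpeg1 (0.939), a pore protein of macrophages, and Pld4 (0.928). Cebpa was closest to Mapkapk3 (0.964), Ddost (0.945) and P4hb (0.944), genes of kinase signalling and of protein folding in the endoplasmic reticulum. Gfi1 was closest to Chd7 (0.882), Trem3 (0.880) and Tmem38b (0.879), and Cebpe to Rflnb (0.902), Clec4a2 (0.847) and Olr1 (0.825). Gfi1b was closest to Zfpm1 (0.858), the GATA cofactor FOG-1, then Synrg and Bcorl1 (0.823 each). Spi1 was closest to Ltbr (0.848), Rps6ka1 (0.843) and Pex14 (0.838), and Runx1 to Prdm2 (0.760), Kmt2e and Fam120b (0.737 each). The pair of Spi1 and Cebpa came 446th among the likenesses of Spi1.

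Calls among the paralogs and partners of the factors are given beside the 7.96% of all genes that passed in EC KO. With 1 or 2 calls in a list, they lie near that share. Of 10 paralogs tested 1 fell in EC KO, Runx3 (114 ± 8.70 against 132 ± 8.35 CPM, log2 difference -0.22, edgeR adjusted p = 0.0284), and of 16 partners and cofactors 1 fell, Rcor1 (-0.32, adjusted p = 0.00811), the corepressor of GFI1 and GFI1B, and 1 rose, Hdac2 (0.26, adjusted p = 0.0275), a histone deacetylase. In global KO and in HSC KO 0 of the 138 genes of the other lists passed. At an unadjusted edgeR p under 0.05 they numbered 17 and 14, beside 740 and 289 of all 13379 genes. That is a larger share than over all genes, in lists chosen with earlier results of these data known. It was not particular to a knockout: between the controls HSC wt and Spred1 wt they numbered 20, beside 850 of all genes. In EC KO they numbered 26, beside 3360. Jun and Lmo2 were the most abundant partners, at 1080 ± 428 and 441 ± 69.8 CPM over 26 libraries, and Lyl1 and Runx2 the most abundant paralogs, at 172 ± 12.6 and 159 ± 27.0 CPM.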

How the data were processed

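RNA-seq libraries of sorted LSK cells (26, in 5 groups from the titles and genotype labels) were used. The authors deposited raw read counts per gene as whole numbers, with no normalization. The submitters' processing notes name the build mm10, the counter HTSeq (0.6.0), the aligner STAR (2.6.0), edgeR (3.28.1) and bcl2fastq (2.18.0.12). Annotation and strandedness are not given in the sources used here. Counts of 24091 genes, 5297 of them at 0 everywhere, entered 1 edgeR 4.0.16 fit (R 4.3.3) of 5 group means: TMM, filterByExpr (minimum count 10, 13379 genes kept), the robust quasi-likelihood F-test, with p adjusted over all these genes by Benjamini-Hochberg and called under 0.05. Log2 CPM used a prior count of 2. RPKM used the gene lengths of the table. Libraries are read as 1 mouse each, and p-values measure the spread between them. The named genes are the 10 factors, list genes that passed, the 2 most abundant genes of a list where given, and the 3 nearest genes. Ly6a, Cd3e, Ly6g and Tal2 fall outside it and were picked once their values had been seen. Members and lists were chosen with earlier results of these data known. Alternatives were DESeq2 1.42.0, limma 3.58.1 (voom), other normalizations and filters, covariates and libraries left out in turn. The scripts were tested on simulated data.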

Additional observations from a re-analysis of the deposited data

Results flagged for a closer look

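In 5 of 50 groups of libraries, 10 factors in 5 groups, a single library lay far from the others of its group. Chance gives about 1 in 20, or 2.5 of 50. Gata2 stood at 592 CPM in global KO replicate 2, against 272 to 391 in the other 5 libraries. Spi1 stood at 133 CPM in Spred1 wt replicate 3, against 109 to 113. In HSC KO replicate 1, Irf8 stood at 225 CPM, against 39.9 to 92.7, and Gfi1b at 32.6, against 10.6 to 12.4. Tal1 stood at 180 CPM in HSC KO replicate 2, against 119 to 136. Global KO replicate 2, HSC KO replicate 2 and Spred1 wt replicate 3 each had the highest mast cell list sum of their group (13600, 12200 and 16600 CPM), and HSC KO replicate 1 had the lowest of its group (1670 CPM). The part of mast cell transcripts in these values was not tested.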

How the results depend on the processing

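Of 34 member differences followed through 698 alternatives, 36 alternatives had another sign, and the smallest adjusted p among those was 0.609. In EC KO the sign turned for Gata1 (0.23) and Gata2 (0.12) with the mast cell covariate, Irf8 (0.0306) with HSC wt as control, and Spi1 in a fit of the compared groups (-0.0017) and with the sex covariate (-0.0001). In HSC KO it turned for Cebpe (-0.0225) and Runx1 (-0.0263) with voom, and for Gata1 (0.12), Gata2 (0.013) and Gfi1 (0.0345) with the mast cell covariate. In global KO it turned for Gata2 (0.0579) and Runx1 (-0.003) with that covariate. Leaving out each library gave ranges across 0 for Spi1 in EC KO (-0.0178 to 0.078), for Cebpe (-0.0854 to 0.1886), Gata1 (-0.1265 to 0.0513), Gfi1 (-0.1275 to 0.1145), Gfi1b (-0.5246 to 0.0616), Runx1 (-0.04 to 0.0772) and Spi1 (-0.0015 to 0.0906) in HSC KO, and for Gata2 (-0.3386 to 0.0016), Runx1 (-0.0223 to 0.0627) and Spi1 (-0.0078 to 0.1233) in global KO. The EC KO members passing were 0 with no filter, in the compared groups alone and with the sex covariate, 3 with the mast cell covariate (beside 19.9% of all genes), 2 with voom (13.6%), DESeq2 (11.5%) and the mean of both controls (15.3%), and 0 to 2 with libraries left out.

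Genes passing in EC KO were 333 in the compared groups, 2659 with the mast cell covariate, 636 with sex, 1824 with voom and 2052 against the mean of both controls, with 483 to 1880 when libraries were left out (584 without Spred1 wt replicate 5, 483 and 628 without EC KO replicates 3 and 4, 1880 without EC KO replicate 5). In global KO they were 4 in the compared groups, 20 with the mast cell covariate and 35 with DESeq2, and 8 to 25 with libraries left out (21 without global KO replicate 2, 25 and 24 without Spred1 wt replicates 1 and 2). In HSC KO they were 5 with the mast cell covariate and with DESeq2, and 3 whichever library was left out. Between the controls they were 1 in the compared groups, 57 with the mast cell covariate, 18 with voom, 32 with DESeq2 and 1 to 21 with libraries left out, and in the difference of effects 5 with voom, 7 with DESeq2 and 2 to 7 (4 without global KO replicate 2, 7 without Spred1 wt replicate 1). Pairs of factors passing were 12 with the mast cell list regressed out, 10 with no removal of the group mean, 0 without the 5 mast cell-rich libraries and 3 without HSC KO replicate 1, and pairs with lists were 17 without the 5 libraries. The causes were not tested. No paired analysis was possible because the replicate numbers of the groups pair no animals. The number of libraries, 5 or 6 a group, limits what can be seen to differences beyond the stated intervals.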

Other observations

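Other gene lists were described by the direction of their genes, though their sums overlapped between the groups compared. In HSC KO 10 of 10 tested erythroid genes were higher than in HSC wt, with a median log2 difference of 1.31. In the same comparison 12 of 12 stem cell genes were lower, with a median of -0.31 (all genes 0.02), and 0 of either list passed by edgeR. The erythroid direction was not particular to HSC KO: in EC KO 10 of 10 were higher than in Spred1 wt (median 0.67). In HSC wt, the control used, 9 of 10 were lower than in Spred1 wt (median -0.78). The library that is high in Irf8 and Gfi1b, HSC KO replicate 1, had the highest erythroid sum of its group, 553 CPM against a median of 399, and Car1 and Tfrc were the most abundant genes of that list. In global KO 11 of 12 secondary granule genes were lower than in Spred1 wt, with a median of -2.38, and 0 passed. This direction was not particular to global KO: in HSC KO 11 of 12 were lower than in HSC wt (median -0.87, 0 passed). In EC KO 8 of 12 were higher than in Spred1 wt. S100a9 and S100a8 were the most abundant genes of the list at 94.6 ± 87.9 and 75.5 ± 65.4 CPM over 26 libraries.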
